A study of Rattus norvegicus with 90 samples.

Results

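The livers described here came from rat fetuses at gestation day 18 (GD18) whose dams had been given NBP2 by mouth at 30 mg/kg/d; NBP2 is Nafion byproduct 2, an ether sulfonic acid with a largely fluorinated chain. They were 10 of the 90 libraries of the study: 4 fetal libraries labelled with a dose of 30 mg/kg/d and 6 fetal controls labelled with a dose of 0. The dams were Sprague-Dawley rats, about 90 days old when bought, dosed from GD14 to GD18, and dams and fetuses were killed 2 to 4 h after the last dose. Each library is the fetal liver of a different dam, so a litter is the unit of replication; whether a library holds 1 fetus or several is not stated, and exposure of the fetus was through the dam. The labels place 3 controls (dams 2069, 2070 and 2071) and 2 treated litters (dams 2082 and 2083) in study block 140, and 3 controls (dams 2114, 2115 and 2116) and 2 treated litters (dams 2127 and 2128) in study block 143. Transcripts were read by TempO-Seq, in which paired detector probes are ligated on the transcript and the product is sequenced, so each gene is represented by its probe site. Levels are given as CPM, the count scaled to the total of its library, and are compared between libraries for 1 gene at a time.

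The receptor PPAR-alpha, which binds fatty acids and fatty acid-like molecules and pairs with RXR on DNA, is known in liver as the switch for burning fat. Its classic targets move fatty acids into the cell, attach and remove coenzyme A, shorten the chains in peroxisomes and mitochondria, oxidise the chain end in the endoplasmic reticulum through CYP4A enzymes, and turn the acetyl units into ketone bodies. The related xenobiotic receptors CAR and PXR are known for inducing CYP2B and CYP3A enzymes. Fetal liver at this age is also a blood-forming organ, so hepatocytes share it with red cell precursors.

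Most of the called genes described here are on lists of fatty acid genes, which were drawn up with earlier results of these data known. The fit held all 30 fetal GD18 libraries, so litters at 0.1 to 10 mg/kg/d also entered the filter and the estimate of the spread. Of 12659 genes tested, 13 were called at an adjusted p under 0.05 (edgeR quasi-likelihood test, Benjamini-Hochberg). All of them were higher at 30 mg/kg/d than in controls, which is 0.103% of the genes tested, in either direction or higher. No gene was called lower (0.0%), although before adjustment p was under 0.05 for 834 lower and 287 higher genes; in DESeq2 16 genes were called higher and 0 lower. Fitted on the 10 control and 30 mg/kg/d libraries alone, 12 genes were called, 9 higher, all among the 13, and 3 lower; Hsd17b13 (adjusted p 0.128, edgeR) and Lpl (0.222) were no longer called there. The 3 lower genes, AC124874.1, AABR07008293.3 and Hrnr, named after their values were seen, were at 11.8 CPM or more in the 3 controls of block 140 and at 0.573 CPM or less in those of block 143. The 11 described here are Cyp4a3, Ehhadh, Fabp1, Cyp3a23/3a1, AABR07035374.1, Acot1, Cyp4a2, Adtrp, Vnn1, Hsd17b13 and Lpl. In 12 of the 13 all 4 treated litters were above all 6 controls, an order found in 0.284% of all genes tested, while 0.442% had the opposite order. The exception was Hsd17b13. These are bulk samples, in which fewer cells of a type and less RNA per cell cannot be told apart. Of these 11, 7 belong to the list of PPAR-alpha lipid targets, which has 21 described members among the 12659 genes tested. Since the lists were chosen with earlier results known, this count is no test of the programme.

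**Figure D1:**
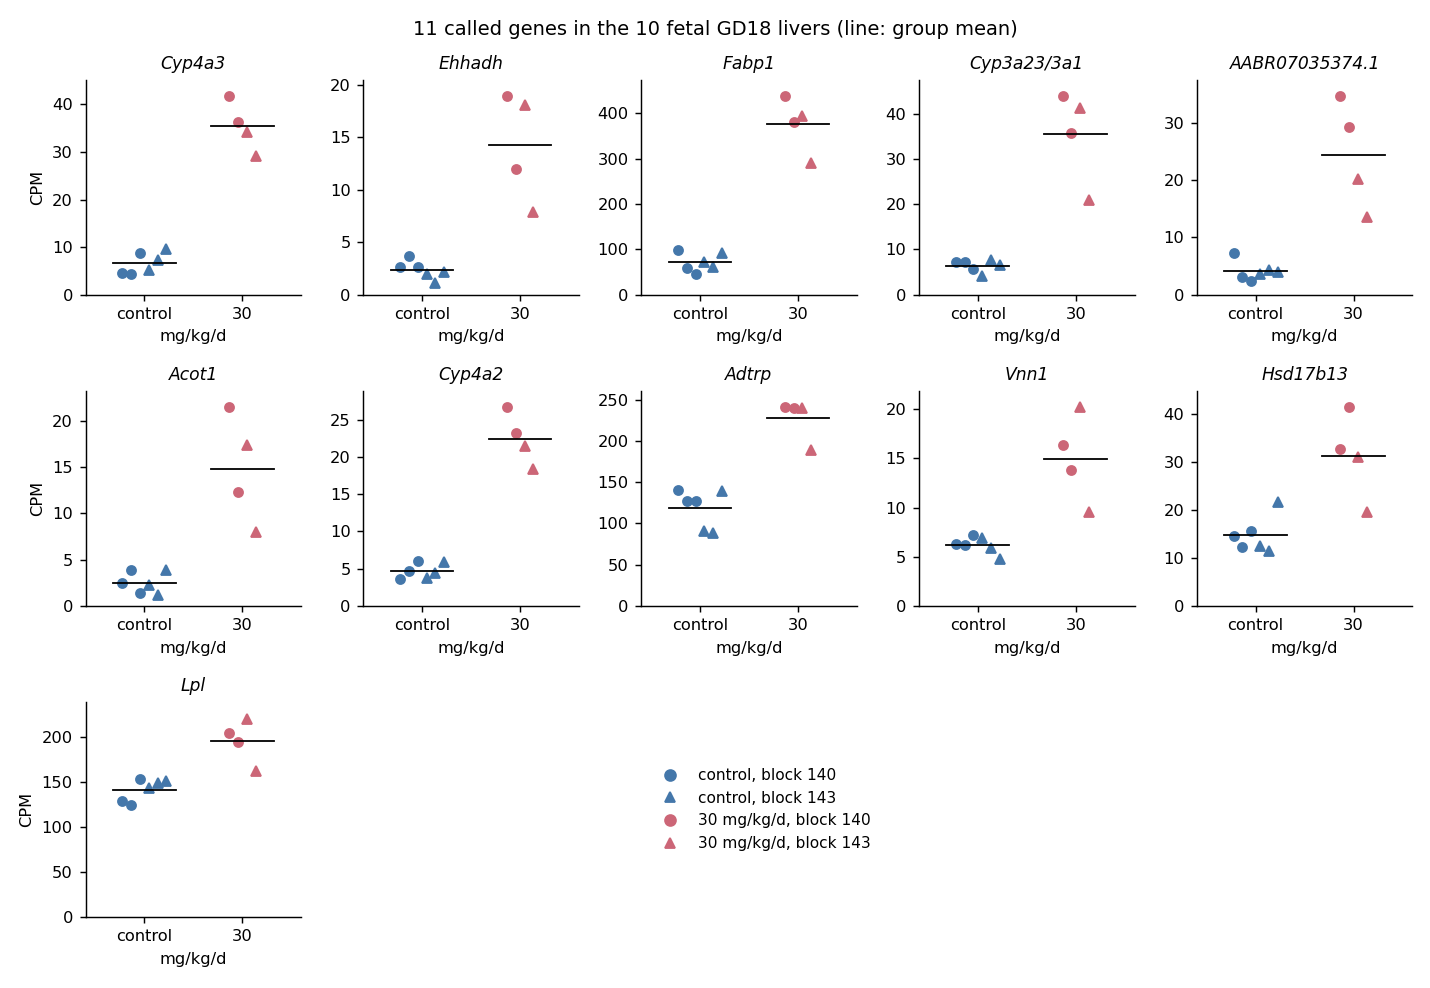
Levels (CPM, linear axis from 0) of 11 called genes in the 6 control and 4 treated fetal GD18 livers; each point is the library of 1 litter, circles are study block 140, triangles study block 143, and the line is the group mean. In 10 panels every treated litter lies above every control; in Hsd17b13 the lowest treated litter lies below the highest control.

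Promoter sequences are shown for the 4 called genes in which both core sites searched for, AGGTCA and AGTTCA, were found. Sites of this kind are known to be bound by these receptors, and the 4 genes were picked for holding them. The 250 bases before the gene start are given 5′ to 3′ on the strand of the gene, from RefSeq on the build GRCr8, with matches in capitals on either strand. Fabp1 is at chr4:104749090-104749339 (plus strand), Cyp4a2 at chr5:134170909-134171158 (minus strand), Cyp4a3 at chr5:134352237-134352486 (minus strand) and Cyp3a23-3a1, the RefSeq symbol of Cyp3a23/3a1, at chr12:14398804-14399053 (minus strand).
Fabp1: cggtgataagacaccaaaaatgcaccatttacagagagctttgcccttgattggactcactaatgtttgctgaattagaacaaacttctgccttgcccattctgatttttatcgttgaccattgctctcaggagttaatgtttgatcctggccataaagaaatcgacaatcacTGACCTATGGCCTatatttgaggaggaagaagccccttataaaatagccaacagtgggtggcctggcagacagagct
Cyp4a2: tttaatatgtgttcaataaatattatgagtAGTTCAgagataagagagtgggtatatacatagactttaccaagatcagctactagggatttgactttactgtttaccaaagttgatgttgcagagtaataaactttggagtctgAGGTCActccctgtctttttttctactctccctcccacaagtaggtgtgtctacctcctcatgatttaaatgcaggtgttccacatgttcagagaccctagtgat
Cyp4a3: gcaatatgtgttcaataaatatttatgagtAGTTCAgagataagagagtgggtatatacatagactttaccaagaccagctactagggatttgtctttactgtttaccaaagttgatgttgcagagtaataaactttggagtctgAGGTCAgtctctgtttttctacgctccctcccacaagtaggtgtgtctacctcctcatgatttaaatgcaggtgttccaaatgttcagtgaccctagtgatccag
Cyp3a23-3a1: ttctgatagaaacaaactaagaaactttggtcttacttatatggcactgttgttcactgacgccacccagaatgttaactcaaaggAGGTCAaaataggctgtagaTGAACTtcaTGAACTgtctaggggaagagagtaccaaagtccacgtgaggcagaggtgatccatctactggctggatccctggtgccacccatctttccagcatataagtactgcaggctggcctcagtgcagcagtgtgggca
The search covered 300-base promoters, which run 50 bases past the start, for the core sites AGGTCA and AGTTCA and for a DR1, here a direct repeat of AGGNCA with 1 base between the copies, on both strands. In Fabp1 the capitals are a DR1 on the minus strand from position -77 to -65 before the start, and the copy at -77 to -72 is also an AGGTCA match; an AGTTCA lies past the start, at 40 to 45, outside the bases shown. A DR1 was found in 139 of 33469 promoters (0.415%). In Cyp4a2 and Cyp4a3 the capitals are AGTTCA at -220 to -215 and AGGTCA at -105 to -100, at the same positions in both genes. The windows matched at 66.8% of bases, compared position by position without gaps. Stretches that are alike but shifted by a few bases count as mismatches there, so the 2 windows are more alike than this value. In Cyp3a23-3a1 they are AGGTCA at -164 to -159 and 2 minus-strand copies of AGTTCA, at -144 to -139 and -135 to -130, with 3 bases between them. AGGTCA was found in 16.2% and AGTTCA in 14.5% of all promoters of this length, so a single core site is common. Of the 11 genes, 8 were matched to a promoter; of these Hsd17b13 held an AGGTCA at -123 to -118, and Ehhadh, Acot1 and Adtrp held none of the 3 motifs in this window. Vnn1, Lpl and AABR07035374.1 were not matched. These matches are letters in a window, with no measurement of binding.

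The omega-hydroxylases Cyp4a2 and Cyp4a3, which oxidise the far end of fatty acid chains, rose to about the same fold. Cyp4a3 ranged in controls from 4.27 to 9.66 CPM with a median of 6.26, and stood at 41.7, 36.4, 34.3 and 29.3 CPM in the treated litters of dams 2082, 2083, 2127 and 2128 (the order used below). The lowest treated litter was thus well above the highest control, and the log2 fold change was 2.49 ± 0.24 (SE; 5.61-fold), with an adjusted p of 7.39e-07 (edgeR), the smallest of all genes. Cyp4a2 ranged in controls from 3.56 to 5.97 CPM with a median of 4.57 and reached 26.7, 23.3, 21.5 and 18.4 CPM in treated litters. Its log2 fold change was 2.29 ± 0.32 (adjusted p 0.000219, edgeR), again with no overlap between the groups. The deposited counts of both genes are not all whole numbers; how reads that fit near copies were assigned is not given in the sources used here, so the level of each gene alone is uncertain. Their sum was 8.07 to 15.5 CPM in controls and 47.7 to 68.5 CPM in treated litters, and Cyp4a2 made up 38.5% to 39.0% of it in treated litters and 37.8% to 52.6% in controls. Cyp4a1, another CYP4A gene of this list, did not pass the filter on low counts: controls were at 0.161 to 1.41 CPM and treated litters at 0.86, 0.607, 0.323 and 0 CPM. On rn6, the build named in the submitters' notes, the files place Cyp4a3 at chromosome 5, 134469270 to 134484840, and Cyp4a2 at chromosome 5, 134196912 to 134207864, both on the minus strand.

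Fabp1, the liver fatty acid-binding protein that carries fatty acids through the cytoplasm, rose with a wide gap between the groups. Controls ranged from 44.8 to 98.5 CPM with a median of 66.2, and the treated litters were at 438.1, 382.2, 393.9 and 290.9 CPM. Every treated litter was far above every control, with a log2 fold change of 2.48 ± 0.27 (5.58-fold; adjusted p 4.02e-06, edgeR). The litter of dam 2128 was the lowest treated litter for Fabp1 and for each of the other genes of the 11. Lpl, the lipase that frees fatty acids from circulating lipoproteins and is known to be made by fetal liver, rose by a smaller log2 fold change of 0.51 ± 0.10 (adjusted p 0.0432, edgeR). Its controls lay between 124.0 and 152.9 CPM and its treated litters at 204.2, 194.7, 220.5 and 162.4 CPM, so the groups did not overlap, but leaving out any 1 of the 10 libraries put the adjusted p above 0.05 (0.06 to 0.97).

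Ehhadh, the bifunctional enzyme of peroxisomal beta-oxidation, was at 1.15 to 3.71 CPM in controls (median 2.39) and at 18.9, 12.0, 18.1 and 7.87 CPM in treated litters. No treated value was near the controls, and the log2 fold change was 2.64 ± 0.28 (6.24-fold; adjusted p 3.22e-06, edgeR), the largest among the called genes.

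Of the 16 tested members of the list of peroxisomal beta-oxidation and biogenesis described here, 1 rose (Ehhadh), 0 fell and 15 were not called, with a median log2 fold change of 0.11 beside -0.05 over all genes tested. Crat, carnitine acetyltransferase, had a log2 fold change of 0.66 ± 0.16 with an adjusted p of 0.295 (edgeR), at 15.1 to 29.1 CPM in controls and 27.5 to 31.7 CPM in treated litters. Catalase (Cat), which breaks down the hydrogen peroxide that the oxidases make, had 0.43 ± 0.13 (adjusted p 0.473, edgeR), and Acaa1a, the peroxisomal thiolase of the last step, had 0.03 ± 0.18 (adjusted p 0.965, edgeR). The thiolase thus gave no difference beyond the spread of the controls, which ranged from 21.7 to 49.9 CPM. Pex11a, a gene of peroxisome division, did not pass the filter and was at 1.41 CPM or less in all 10 libraries.

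Acot1 and Vnn1 act on coenzyme A and its thioesters. Acot1, the cytosolic thioesterase that splits acyl-CoA into free fatty acid and coenzyme A, was at 1.15 to 3.88 CPM in controls (median 2.34) and at 21.5, 12.3, 17.5 and 8.03 CPM in treated litters. All treated litters were above the controls, with a log2 fold change of 2.61 ± 0.35 (6.1-fold; adjusted p 8.16e-05, edgeR). In the files its interval overlaps the model LOC108348062 on the same strand. Vnn1, the pantetheinase that recycles the vitamin part of coenzyme A, went from 4.74 to 7.23 CPM in controls to 16.3, 13.8, 20.2 and 9.5 CPM, a log2 fold change of 1.31 ± 0.21 (adjusted p 0.00194, edgeR). Of the 14 tested members of the list of thioesterases and coenzyme A turnover, these 2 rose and 12 were not called (list median 0.21). Acot2, the mitochondrial relative of Acot1, was at 5.57 to 8.08 CPM in treated litters against 1.6 to 4.96 CPM in controls with an adjusted p of 0.473 (edgeR). Acot12, the cytosolic acetyl-CoA hydrolase, had a log2 fold change of 0.87 ± 0.23 (adjusted p 0.427, edgeR), and Acot4 had 0.13 ± 0.57 (adjusted p 0.953, edgeR).

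Of the 3 tested genes of ketone body synthesis described here none was called; Acat1, the mitochondrial acetoacetyl-CoA thiolase, had 0.56 ± 0.22 (adjusted p 0.502, edgeR) and Bdh1, the last enzyme of the route, 0.20 ± 0.17 (adjusted p 0.693, edgeR).

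Mitochondrial beta-oxidation gave no called gene. All 19 members in the file were tested, 17 had a log2 fold change above 0, the list median was 0.40 beside -0.05 over all genes tested, and 11 of the 19 had an unadjusted p under 0.05, all higher, where 1121 of the 12659 genes tested did. The median was 0.52 in block 140 alone and 0.39 in block 143 alone. Acaa2, the thiolase that ends the spiral, came closest: it was at 219.3 to 302.5 CPM in controls and at 423.8, 364.1, 494.1 and 310.5 CPM in treated litters, a log2 fold change of 0.61 ± 0.14 with an adjusted p of 0.149 in edgeR and 0.0432 in DESeq2. Its groups did not overlap. Cpt2, the inner membrane carnitine palmitoyltransferase, was at 23.7, 19.4, 20.2 and 25.2 CPM against 12.6 to 18.2 CPM in controls (0.50 ± 0.14; adjusted p 0.443, edgeR). Cpt1b, the muscle form of the outer membrane enzyme, had 1.17 ± 0.32 at low levels (adjusted p 0.446, edgeR), and Cpt1a, the liver form, had 0.58 ± 0.31 (adjusted p 0.576, edgeR), with controls at 1.08 to 3.88 CPM and treated litters at 2.58 to 3.07 CPM inside that range. Hadha, the alpha subunit of the trifunctional protein, had 0.36 ± 0.10 (adjusted p 0.473, edgeR).

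Adtrp and Hsd17b13 belong to the list of lipid droplet proteins and lipases, with Lpl. Adtrp, a membrane hydrolase of fatty acid esters of hydroxy fatty acids, was at 88.3 to 140.1 CPM in controls (median 127.3) and at 241.0, 240.4, 239.9 and 189.3 CPM in treated litters. Here 3 of the treated litters were almost equal and that of dam 2128 was lower, still above every control, and the log2 fold change was 0.99 ± 0.15 (1.98-fold; adjusted p 0.000963, edgeR). Its counts are partly not whole, and in the files its interval overlaps LOC100362172 on the other strand. Hsd17b13, a lipid droplet-bound dehydrogenase of hepatocytes, was at 11.5 to 21.8 CPM in controls (median 13.5) and at 32.9, 41.5, 31.0 and 19.7 CPM. The litter of dam 2128 lay below the control of dam 2116, the one place among the called genes where the groups overlapped. The log2 fold change of Hsd17b13 was 1.13 ± 0.21 (adjusted p 0.0163, edgeR), and it was 1.62 in block 140 alone and 0.75 in block 143 alone; 6 of the 10 fits without 1 library lost the call, with adjusted p up to 0.294. Of 17 tested members of this list 3 rose and 14 were not called, with a median of 0.10. Plin2, the coat protein of lipid droplets, was listed at 0 in all 6 controls and in 2 treated litters, and at 0.162 and 0.164 CPM in the others.

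Of the PPAR-alpha lipid target list, 28 members in the file are described here and 21 passed the filter. Of these, 7 rose, 0 fell and 14 were not called; the median log2 fold change of the 21 was 0.51, 17 were above 0, and in 9 all treated litters were above all controls. Those that passed the filter include genes that passed because treated litters were high, so the share is not one of all members. The members not called ran from -2.41 (Cyp4a8, at 0.304 CPM or less in treated litters) to 1.17 (Cpt1b). Angptl4, Cd36, Acot3, Acaa1b, Cidea and Slc25a20 were not analysed here. Pdk4, the pyruvate dehydrogenase kinase, did not pass the filter and was at 0.516 CPM or less in treated litters and at most 4.06 CPM in controls. Ppara itself was at 4.99 to 13.9 CPM in controls and 9.63, 8.81, 9.54 and 12.1 CPM in treated litters, inside the control range, with a log2 fold change of 0.12 ± 0.24 (adjusted p 0.883, edgeR). Of the 22 tested nuclear receptors and cofactors none was called, and their median was -0.07.

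**Figure D2:**
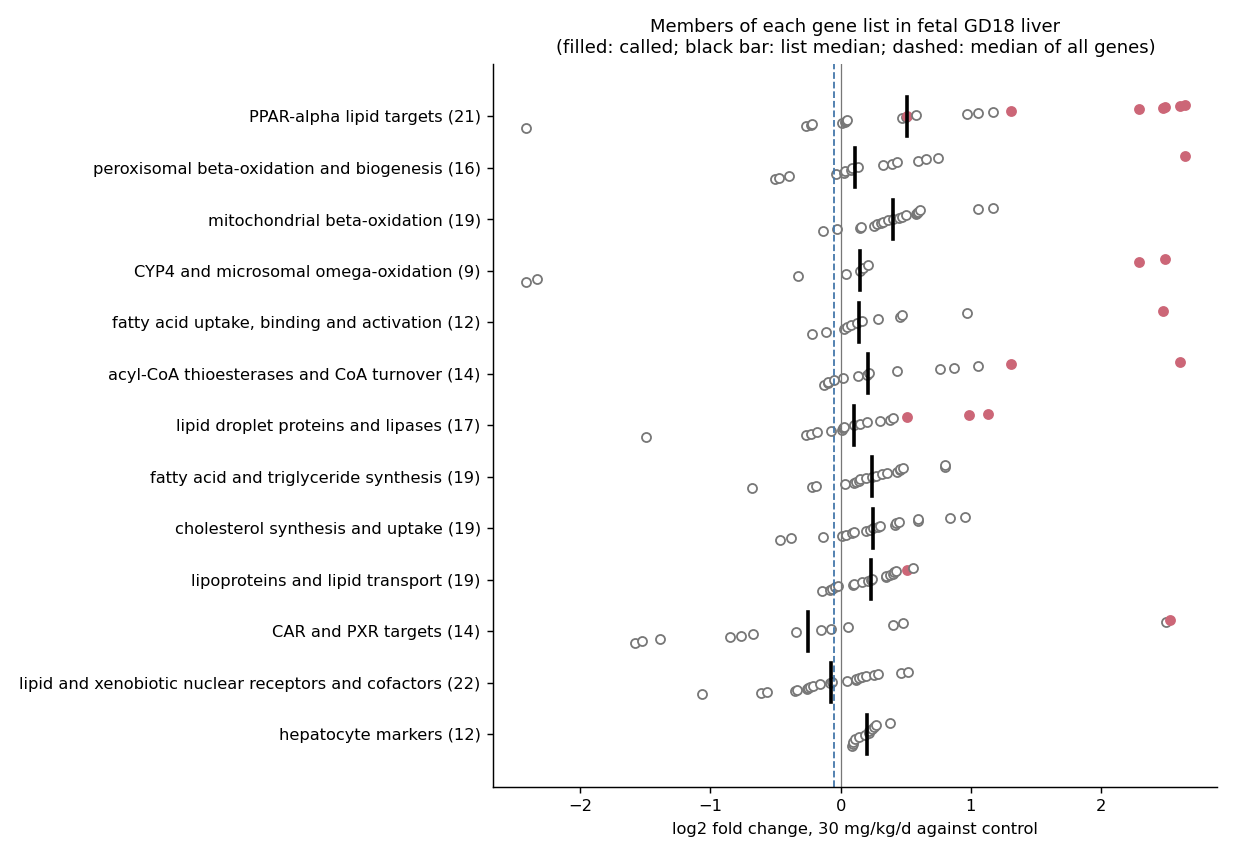
Log2 fold change at 30 mg/kg/d against control (horizontal axis) of every tested described member of 13 gene lists in fetal GD18 liver, with the number tested in brackets; filled points are called genes, the black bar is the list median and the dashed line the median of all genes tested (-0.05). The called genes shown lie at 0.99 (Adtrp) or more except Lpl, which, at 0.51, has uncalled members to its right in the PPAR-alpha and lipoprotein lists; 1 called gene is in the CAR and PXR list, whose median is -0.25.

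Cyp3a23/3a1, a cytochrome P450 that PXR is known to induce, was the one called gene of the list of CAR and PXR targets. It was at 4.02 to 7.72 CPM in controls (median 6.83) and at 44.0, 35.9, 41.4 and 21.1 CPM in treated litters, with no overlap and a log2 fold change of 2.53 ± 0.28 (5.77-fold; adjusted p 4.26e-06, edgeR). AABR07035374.1 is a model inside its interval on the same strand (rn6 chromosome 12, 11663683 to 11677831 within 11655402 to 11733137). The counts of both are not all whole numbers, so the level of each alone is uncertain. It had a log2 fold change of 2.57 ± 0.29 (adjusted p 4.52e-06, edgeR), and the sum of both was 7.56 to 14.3 CPM in controls and 34.6 to 78.8 CPM in treated litters. The other 13 tested members were not called and the median of the 14 was -0.25. Cyp2b1, the usual readout of CAR, was at 0.0455 to 5.07 CPM in controls and at 7.61, 6.26, 3.65 and 0.371 CPM in treated litters, so the groups overlapped, with a log2 fold change of 2.50 ± 0.83 (adjusted p 0.473, edgeR). With the level of receptor genes as a covariate, Cyp2b1 had 3.58 ± 0.50 and an adjusted p of 0.000119 (edgeR). Cyp2b2 did not pass the filter: controls were at 0.164 CPM or less and treated litters at 0.92, 0.0079, 0.473 and 1.19 CPM. Ephx1, microsomal epoxide hydrolase, was at 23.2 to 43.8 CPM in controls and 38.5 to 42.8 CPM in treated litters (0.48 ± 0.15; adjusted p 0.473, edgeR).

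The lists of lipid making had no called gene, except Lpl among the lipoprotein genes. The medians were 0.24 for fatty acid and triglyceride synthesis (19 tested, 16 above 0), 0.25 for cholesterol synthesis and uptake (19 tested, 16 above 0) and 0.23 for lipoproteins and lipid transport (19 tested, 14 above 0). Those 3 medians were higher in block 140 alone (0.43, 0.56 and 0.37) than in block 143 alone (0.16, 0.09 and 0.15). Fads1, the delta-5 desaturase, was at 23.9, 23.7, 21.7 and 21.3 CPM against 9.74 to 17.5 CPM in controls, with no overlap, and an adjusted p of 0.443 (edgeR). Scd2, a stearoyl-CoA desaturase, was at 713.6, 555.3, 651.9 and 683.1 CPM against 422.9 to 548.1 CPM (adjusted p 0.473, edgeR). Insig1, which holds sterol-sensing proteins in the endoplasmic reticulum, was at 994.7, 643.1, 843.5 and 430.0 CPM against 175.4 to 590.9 CPM in controls; its log2 fold change was 0.95 ± 0.29 (adjusted p 0.473, edgeR), and it was 1.69 in block 140 alone and 0.26 in block 143 alone.

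None of the other biology lists held a called gene. Their medians lay between -0.31 (AhR targets, 3 tested) and 0.28 (acute phase and coagulation proteins, 22 tested), with 0.07 for glucose and glycogen metabolism, -0.15 for bile acids, -0.05 for NRF2 targets, -0.02 for the insulin-like growth factor axis and -0.01 for the cell cycle. Igf2, the main growth factor of the fetus, was at 1379, 1078, 1252 and 1237 CPM in treated litters and 1074 to 1610 CPM in controls (0.01 ± 0.12; adjusted p 0.989, edgeR). Igfbp1, its binding protein from liver, was at 79.0 to 195.6 CPM against 56.4 to 229.3 CPM (-0.11 ± 0.37; adjusted p 0.933, edgeR). Pck1, the gate of glucose making, and Cyp7a1, the first enzyme of bile acid synthesis, did not pass the filter: treated litters were at 0.759 CPM or less for Pck1 and 0.172 CPM or less for Cyp7a1. Among all genes not called, Qpct, a glutaminyl cyclase, had the smallest p of those higher: it was at 32.9, 33.7, 29.7 and 39.98 CPM against 13.4 to 26.4 CPM in controls (0.90 ± 0.21; adjusted p 0.137, edgeR). Hax1, a mitochondrial survival protein, had the smallest p of those lower, at 5.16, 5.16, 5.5 and 6.88 CPM against 8.28 to 12.7 CPM in controls (-0.78 ± 0.19; adjusted p 0.229, edgeR). Both had groups that did not overlap.

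The cell types in the livers were checked by marker lists. Afp, the fetal serum protein of hepatoblasts, was at 12086 to 14646 CPM in treated litters and 10815 to 16239 CPM in controls, and haemoglobin genes took 7.25% to 13.7% of the counts in treated litters and 10.7% to 13.3% in controls. The summed hepatocyte markers were 13581 to 17992 CPM in treated litters and 12353 to 16053 CPM in controls (exact permutation test over 210 choices, two-sided, p = 0.105; 0.876 after adjustment over 19 library measures). Within each study block both treated litters were above all 3 controls: 17992 and 16791 CPM against 14141 to 16053 CPM in block 140, and 15177 and 13581 CPM against 12353 to 13471 CPM in block 143. With doses exchanged only within blocks the exact permutation p was 0.02 over 100 choices (two-sided; 0.38 after adjustment over the 19 measures). The largest members of this sum were Apoa1 and Apoa2, at means of 5425 and 3803 CPM, and both are also in the list of lipoproteins and lipid transport. Their log2 fold changes were 0.24 ± 0.11 and 0.38 ± 0.12, beside 0.09 ± 0.10 for Alb and 0.14 ± 0.23 for Hnf4a. The sum thus weighs these 2 apolipoprotein genes most and is not a count of hepatocytes. Of the single genes, all 12 tested hepatocyte markers had a log2 fold change above 0, with a median of 0.20 and none called. The library of dam 2127 had the lowest haemoglobin share and held 1770 CPM of stellate and fibroblast markers, against 864.1 to 928.1 CPM in the other treated litters. The part of the hepatocyte and stellate marker levels in the results was not tested. With the haemoglobin share as a covariate 29 genes were called, 14 higher and 15 lower, and all 13 were among them.

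Libraries also differed in genes that liver is not known to express. The 1244 olfactory, vomeronasal and taste receptor genes took 1489, 3617 and 1095 CPM in the 3 controls of block 140, 476.4 and 203.7 CPM in the 2 treated litters of that block, and 18.0 to 41.8 CPM in the 5 libraries of block 143. Of 628 receptor genes tested, 174 had an unadjusted p under 0.05 (edgeR), and all 174 were lower at 30 mg/kg/d. Among all 12659 genes tested, 834 were lower with an unadjusted p under 0.05 (edgeR). The median log2 fold change of the receptor genes in each fit was -2.37 in block 140 alone and 0.43 in block 143 alone. Placenta and yolk sac markers moved with them: they summed to 18.9 CPM or less, and to at most 0.162 CPM in block 143. A fit left out every fetal GD18 library over 1000 receptor CPM, at any dose, and so all 3 controls of block 140. The treated litters of that block then had no control of their own block. There 9 genes were called, 8 of them among the 13. Vnn1, Hsd17b13 and Lpl were no longer called, and their log2 fold changes were 1.30, 0.95 and 0.36. The 8 that were called again were Cyp4a2, Cyp4a3, Ehhadh, Fabp1, Acot1, Adtrp, Cyp3a23/3a1 and AABR07035374.1. Y-linked genes were at 0.322 CPM in the control of dam 2114 and 1.38 CPM in the treated litter of dam 2082, and at 66.1 CPM or more in the other 8 libraries. Among the fetal GD18 libraries of any dose with Y-linked genes over 10 CPM, those 8 included, 9 genes were called. Of these, 8 were among the 13, without Adtrp, Hsd17b13 and Lpl.

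**Figure D3:**
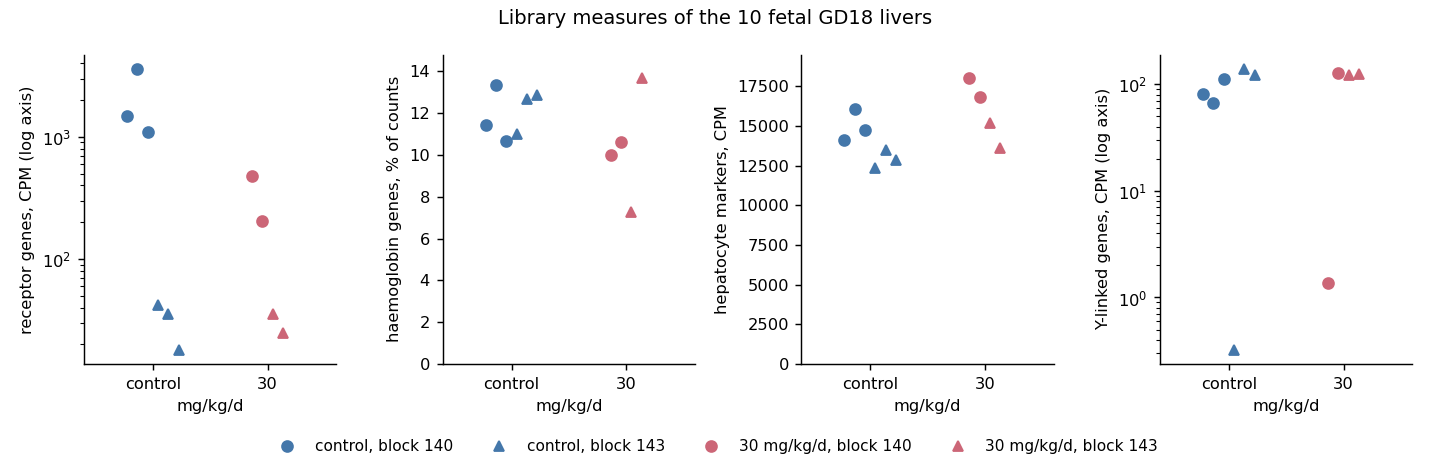
Receptor genes (CPM, log axis), haemoglobin genes (percent of counts), hepatocyte markers (CPM) and Y-linked genes (CPM, log axis) in each of the 10 libraries; circles are study block 140 and triangles block 143. The 3 controls of block 140 lie between 1095 and 3617 CPM of receptor genes, above the treated litters, and 1 library in each group is low in Y-linked genes.

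Each study block held 2 treated litters and 3 controls, and the fit of a block alone also held its lower doses. Block 140 gave 3 calls and block 143 gave 4, all among the 13 and all higher. For the 8 genes named last the fold changes were above 0 in both blocks: Cyp4a3 had a log2 fold change of 2.95 and 2.11, Cyp4a2 2.60 and 2.12, Fabp1 2.83 and 2.21, Ehhadh 2.60 and 2.89, Acot1 2.96 and 2.41, Cyp3a23/3a1 2.82 and 2.38, AABR07035374.1 3.12 and 2.07, and Adtrp 1.10 and 1.02 in blocks 140 and 143. Those 8 genes and Vnn1 were called in all 10 fits that left out 1 library. The largest adjusted p in those fits was 7.5e-06 for Cyp4a3 and 0.0161 for Vnn1 (edgeR).

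Lower doses were compared with the same 6 controls, so the comparisons are not independent. At 10 mg/kg/d (n = 4) no gene was called (0.0%) by edgeR, and 863 had an unadjusted p under 0.05. Cyp4a3 was at 8.05 to 19.6 CPM there, a log2 fold change of 1.01 ± 0.25 (adjusted p 0.727, edgeR), beside 2.49 at 30 mg/kg/d. Fabp1 was at 75.4 to 192 CPM (0.83 ± 0.27), Cyp3a23/3a1 at 8.69 to 14.4 CPM (1.02 ± 0.29) and Adtrp at 141.2 to 199.1 CPM (0.59 ± 0.15), each with an adjusted p of 0.727 (edgeR). The lowest litter of Cyp3a23/3a1 and of Adtrp at 10 mg/kg/d was above the highest control, while Cyp4a3 and Fabp1 overlapped with the controls. How many of all genes tested have that order at this dose was not counted. Vnn1 had 0.20 ± 0.23 at 10 mg/kg/d. At 3 mg/kg/d the log2 fold changes of Cyp4a3, Fabp1 and Acot1 were 0.18, 0.23 and 0.36, and at 1 mg/kg/d they were -0.23, 0.07 and -0.19; no gene was called at 3, 1, 0.3 or 0.1 mg/kg/d (326, 514, 229 and 418 genes had an unadjusted p under 0.05). Ehhadh did not follow the order of doses at the low end, with 0.87 at 0.1 mg/kg/d and 0.04 at 1 mg/kg/d.

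**Figure D4:**
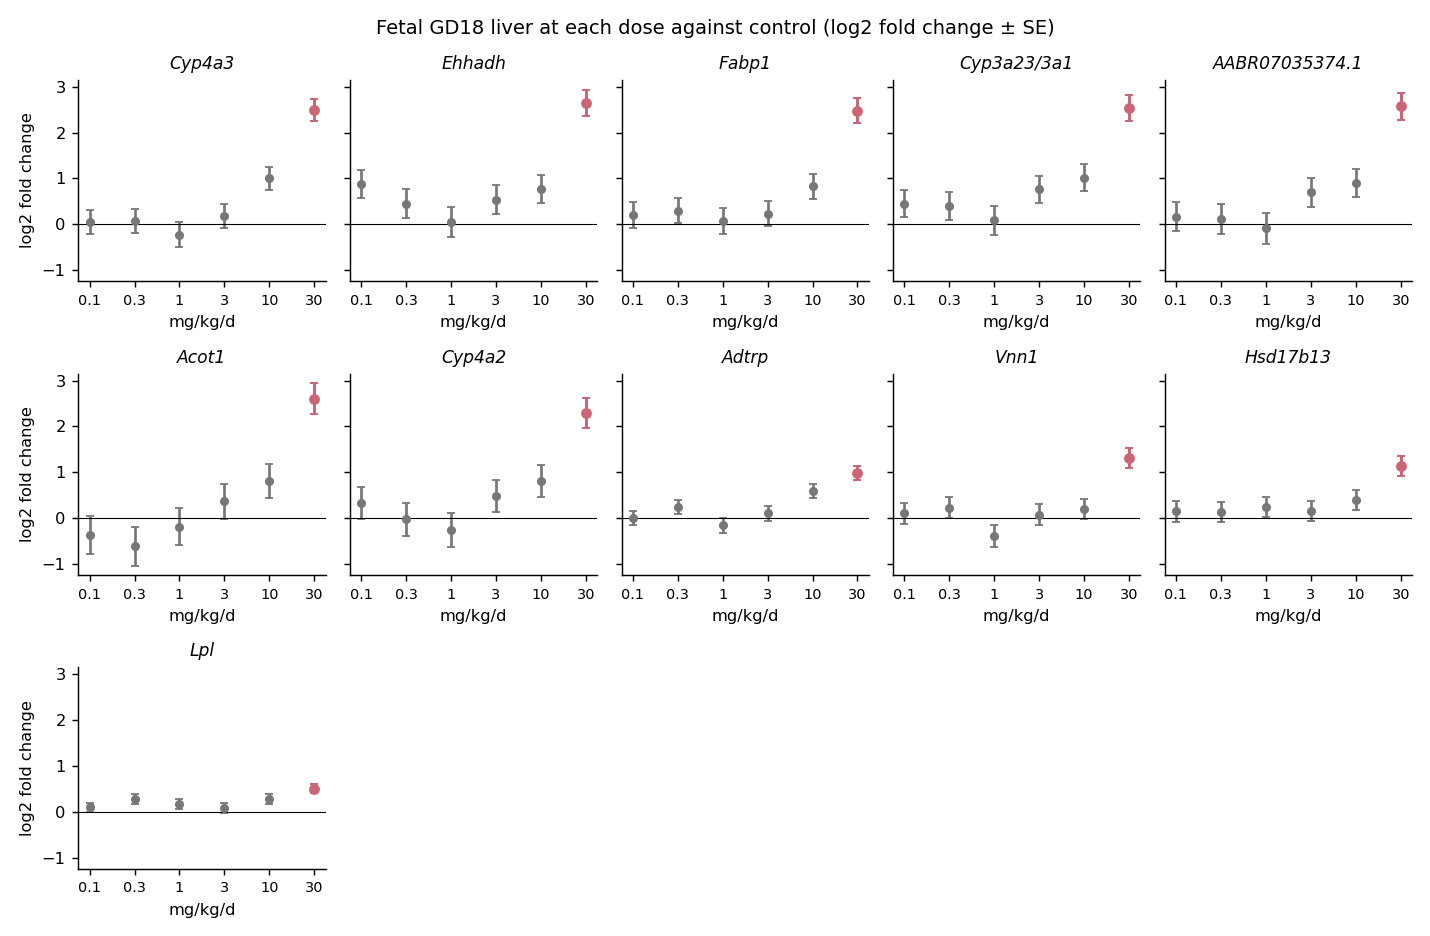
Log2 fold change ± SE (edgeR) of 11 called genes in fetal GD18 liver at each dose in mg/kg/d, each against the same 6 controls; the coloured point is 30 mg/kg/d. In Cyp4a3 the value is 1.01 at 10 mg/kg/d and 2.49 at 30 mg/kg/d, and in Ehhadh it is 0.87 at 0.1 mg/kg/d.

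The livers of the dams at GD18 were compared with those of their fetuses to see which responses differed. Of 15702 genes tested for a different response to 30 mg/kg/d, 14 were called (0.0892%), and 4 of the fetal calls were among them: Cyp4a3, Cyp4a2, Fabp1 and Hsd17b13. In the dam Cyp4a3 was at 167 ± 40.6 CPM in controls (mean ± SD, n = 6) and 140.7 ± 17.1 CPM at 30 mg/kg/d (n = 4), a log2 fold change of -0.30 ± 0.24, and the response of the fetus exceeded that of the dam by 2.91 ± 0.37 on the log2 scale (adjusted p 2.84e-06, edgeR). The difference was 2.69 ± 0.38 for Cyp4a2 (adjusted p 2.87e-05) and 2.58 ± 0.40 for Fabp1 (adjusted p 0.000158, edgeR). Fabp1 was at 6251 ± 1654 CPM in control dams and 6799 ± 2469 CPM in treated dams (SD, n = 6 and n = 4), levels above those of every fetal library compared here. Hsd17b13 had -0.44 ± 0.11 in the dam and 1.13 in the fetus, a difference of 1.70 ± 0.27 (adjusted p 0.000243, edgeR). The control levels of these 4 genes were higher in dams than in fetuses: 103.4 against 4.71 CPM for Cyp4a2 and 580.4 against 14.7 CPM for Hsd17b13, as group means.

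Other fetal calls were called in the dam as well. Of the 13, 6 were called there (46.2% of the fetal calls and 9.52% of the 63 calls of the dam, which were 0.457% of 13783 genes), Ehhadh, Cyp3a23/3a1, AABR07035374.1, Acot1 and Vnn1 among them. The log2 fold change of Ehhadh was 2.15 ± 0.23 in the dam beside 2.64 in the fetus; the difference was 0.63 ± 0.37 and was not called (adjusted p 0.315, edgeR). Cyp3a23/3a1 had 4.52 ± 0.43 in the dam beside 2.53 in the fetus, a difference of -1.86 ± 0.52 with an adjusted p of 0.15 (edgeR), and 0.0188 with the dam as a block that pairs each fetal library with its own dam. Adtrp had 0.33 ± 0.13 in the dam, with a difference of 0.79 ± 0.23 that was not called (adjusted p 0.15, edgeR). Rgn, regucalcin, a calcium-binding protein of hepatocytes, fell by 0.98 on the log2 scale in the dam (adjusted p 0.00482, edgeR) and had 0.55 ± 0.14 in the fetus (adjusted p 0.374), a called difference of 1.63 ± 0.27 (adjusted p 0.000394, edgeR). Ephx1 rose by 2.09 ± 0.17 in the dam against 0.48 in the fetus, a called difference of -1.50 ± 0.27 (adjusted p 0.00217, edgeR). Eci1, an isomerase of mitochondrial beta-oxidation, had 2.09 ± 0.29 in the dam and 0.15 ± 0.19 in the fetus; this difference of -1.79 ± 0.39 was called without the pairing (adjusted p 0.0364, edgeR) but not with it (0.13).

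**Figure D5:**
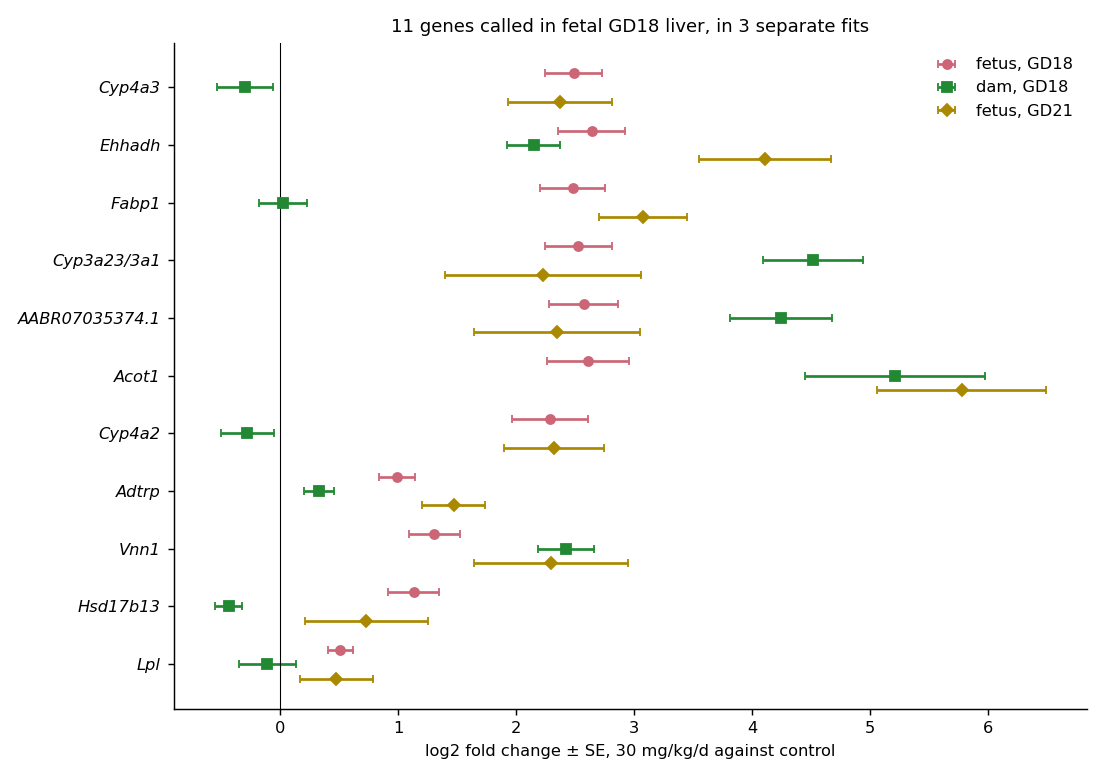
Log2 fold change ± SE at 30 mg/kg/d against control of 11 genes called in fetal GD18 liver, in the fetus at GD18 (circles), the dam at GD18 (squares) and the fetus at GD21 (diamonds), each from its own fit. For Cyp4a3, Cyp4a2 and Fabp1 the dam lies at -0.30, -0.28 and 0.03 while both fetal ages lie at 2.29 or more.

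In the older fetuses, sampled after dosing from GD17 and called GD21 in the titles and GD20 in the age entry, 3 dams were treated and 3 were controls, all in a further study block. There 3 of 10244 genes were called (0.0293%), Acot1, Fabp1 and Ehhadh, all of them among the 13 of GD18 (23.1% of those). Acot1 had a log2 fold change of 5.78 ± 0.71, Ehhadh 4.11 ± 0.56 and Fabp1 3.07 ± 0.37 at GD21, beside 2.61, 2.64 and 2.48 at GD18. No gene of 14697 was called for a difference between the ages (0.0%; edgeR, 302 with an unadjusted p under 0.05; DESeq2 called 2). The difference for Acot1 was -3.19 ± 0.70 (adjusted p 0.367, edgeR), which does not show that the ages respond alike. Slc39a14, a zinc and iron carrier, had the same adjusted p with 1.12 ± 0.24, from 0.15 ± 0.13 at GD18 and -0.97 at GD21. Age, the days of dosing and the study block cannot be told apart in this comparison.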

How the data were processed

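Fetal liver RNA of 10 litters (6 controls, 4 at 30 mg/kg/d) was taken from a table of estimated counts for 20833 genes that the authors deposited, not normalised. Per the submitters' processing notes, rn6 was the build and the tools were STAR 2.7.3a and Partek, with roles not given in the sources used here. Of the estimated counts 7.61% are not whole, in 4145 genes, where the design had assumed whole counts, and they were rounded before the tests. A second table, in which the authors deposited log2 values (log2 of CPM plus 0.0001, matched within 0.01), was not used for tests. Per the labels' protocols probes cover 21119 genes, reads were 50 bases, and overly abundant transcripts were attenuated in all libraries, so levels of different genes are not comparable.

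Totals were 4640700 to 6585139 counts in the 10 libraries. Between libraries of 1 dose group, whatever their block, a chi-square test of the counts gave 6.66 to 76.2 per degree of freedom. No library was thus a copy of another in its group. All 30 fetal GD18 libraries were fitted with edgeR 4.0.16 in R 4.3.3 (filterByExpr with a minimum count of 10, TMM factors, quasi-likelihood F test, prior count 0.125), with study block and dose as terms and 30 mg/kg/d against control as the contrast. P values were two-sided and adjusted by Benjamini-Hochberg over all genes tested, with a threshold of 0.05. The SE is the size of the log2 fold change over the square root of F. Joint fits tested the difference of responses between dam and fetus at GD18 and between fetal ages. Library measures were tested by exact permutation, over all 10 libraries and, added after the data were seen, within study blocks. DESeq2 1.42.0 was an alternative; the others were RLE factors, other filters, no block term, each block alone, the 10 libraries alone, covariates (Y-linked level, receptor level, haemoglobin share), leaving out each library in turn, and blocking on the dam. Added after the data were seen was a covariate of 2 classes, Y-linked genes over 10 CPM or not. So were leaving out libraries over 1000 receptor CPM, leaving out receptor genes, and libraries with Y-linked counts alone.

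The dam number in the labels pairs each fetal library with its dam. As a check, residuals of dam and fetus correlated across genes at a median of 0.0386 over 30 pairs (-0.669 to 0.416), and those of other dams at -0.00433.

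Named genes were all those called, up to 3 of smallest p in each of 24 biology lists, a fixed set of genes of lipid, xenobiotic and growth metabolism, the most abundant members of 16 marker lists, the 5 of smallest p not called in each direction, also with the Y-linked covariate, and 5 of each difference test. The text gives those that its results turn on; 2 of the called genes and some of the fixed set are not reported here, and the lists and figures leave out those 2. Other members of the fatty acid and CAR and PXR lists are named as examples chosen after their values were seen. The members and lists were chosen with earlier results of these data known. The main test was also run on simulated counts that held no study block effect, so that run says nothing about such an effect. Promoters are from RefSeq (GRCr8), and gene positions are those of the deposited table.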

Additional observations from a re-analysis of the deposited data

Results flagged for a closer look

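In the fetus the response of 4 called genes differed from that of the dam by a test of the difference itself (edgeR): Cyp4a3 by 2.91, Cyp4a2 by 2.69, Fabp1 by 2.58 and Hsd17b13 by 1.70 on the log2 scale, each larger in the fetus.

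A library stood apart from the rest of its group in 8 of the 60 groups of values looked at, where chance alone marks about 1 in 20. The gap to the nearest other library was above 0.829 of the range in groups of 4, or above 0.625 in groups of 6. Among genes, Adtrp was lowest in the treated litter of dam 2128, at 189.3 CPM beside 239.9 CPM in the nearest. The litter of dam 2127 was highest among treated litters for granulocyte and mast cell markers (944.2 CPM, nearest 541.8) and for stellate cell and fibroblast markers (1770 CPM, nearest 928.1). The control of dam 2070 was highest for lymphoid markers (50.5 CPM, nearest 15.9), stomach and intestine markers (27.3 CPM, nearest 9.43) and placenta and yolk sac markers (18.9 CPM, nearest 7.07). The control of dam 2071 was highest for exocrine pancreas markers (69.1 CPM, nearest 29.1). Y-linked genes were lowest in the treated litter of dam 2082, at 1.38 CPM beside 123.2 CPM.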

How the results depend on the processing

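The 13 calls in fetal GD18 liver became 62 with the Y-linked level as a covariate (15 higher and 47 lower, 14 of the latter receptor genes). They became 260 (21 higher and 239 lower, 81 of the latter receptor genes) with 2 classes, Y-linked genes over 10 CPM or not. No label gives fetal sex, and a library may hold several fetuses, so these classes are not known to be the sexes. With the haemoglobin share the 13 became 29. The 13 calls became 3 in study block 140 alone and 4 in block 143 alone, where each fit holds all doses of 1 block. The cause of the changes with covariates was not tested. All 13 genes were among the calls under each of these 3 covariates. With the receptor level as a covariate 13 genes were called, 11 of them among the 13, without Lpl (adjusted p 0.103, edgeR); with the Y-linked and receptor levels together 11 were called, 10 of them among the 13, without Lpl (0.155) and Hsd17b13 (0.0839). The 10 libraries alone gave 12 calls, 9 higher and 3 lower. Leaving out 1 library gave 9 to 12 calls. Of 338 values of called genes under the alternatives, 270 stayed past the threshold, 68 no longer passed it and 0 turned direction. The 14 genes with a different response in dam and fetus became 94 with DESeq2 and 7 to 17 without 1 library, 7 without the fetal control of dam 2070 or the treated litter of dam 2083. With the dam as a replicate block, 10 genes were called, 9 of them among the 14; Slco1a4, Gdf15, Zwint, Hba-a3 and Eci1 were lost. Between the fetal ages, 0 calls became 2 with DESeq2 and 0 to 5 without 1 library, 5 without the treated GD21 litter of dam 2141. Counts of 4640700 or more per library limit the precision of genes near 1 CPM.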

Other observations

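Cyp4a1, a CYP4A hydroxylase and PPAR-alpha target, was near 0 in fetal liver at GD18 and higher elsewhere. At GD21 it was at 5.24 ± 2.49 CPM in control fetuses and 75.5 ± 63.2 CPM at 30 mg/kg/d (SD, n = 3 each), and the fitted change was 3.85 ± 0.80 (SE) on the log2 scale, with an adjusted p of 0.185 (edgeR). In the dam at GD18 it was at 188.5 ± 29.7 CPM in controls (n = 6) and 355.0 ± 182 CPM at 30 mg/kg/d (n = 4), a log2 fold change of 0.80 ± 0.21 (adjusted p 0.0877, edgeR).

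Lists of cell types had no called gene. The medians were 0.07 for erythroid cells (20 tested), 0.15 for megakaryocytes and platelets (9 tested), 0.28 for granulocytes and mast cells (14 tested) and 0.06 for macrophages and Kupffer cells (13 tested). They were -0.78 for lymphoid cells (6 tested) and -0.76 for exocrine pancreas (6 tested), and those of block 143 alone were 0.90 and -0.04.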
